A study of Rattus norvegicus with 9 samples.

Results

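The SR splicing factors are a family of RNA-binding proteins, and 10 of its genes (Srsf1, Srsf2, Srsf3, Srsf4, Srsf5, Srsf6, Srsf7, Srsf9, Srsf10 and Srsf11) were followed in the thalamus of young rats eating pelleted chow or powder. Every array feature (probe set) that the platform annotation assigns to 1 of these symbols alone was kept, which gave 19 probe sets for 10 of the 14217 named genes of the table. The family was chosen on chow minus powder differences already seen in these arrays, so its own differences, and which of them passed the threshold used for all probe sets, only describe that choice and support nothing. For 2 further probe sets the annotation lists Srsf3 together with another symbol, and these were not used.

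SR proteins carry RNA recognition motifs and a tail rich in arginine and serine. They bind enhancer sequences in exons and bring the U1 particle and the U2AF factor to the neighbouring splice sites, so that the exon is kept in the mRNA. Kinases of the SRPK and CLK families phosphorylate the tail and move the proteins into the nucleus and out of its storage speckles. Many SR genes damp their own output by splicing in a poison exon that sends the transcript to nonsense-mediated decay. In neurons, splicing sets which forms of channels, receptors and adhesion proteins are made.

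RNA of the thalamus, the relay between sense organs, brainstem and cortex, came from male Wistar rats that were 3 weeks old at the start and all ate powder for 2 days. The chow group (4 arrays) then received pelleted chow for 8 days and the powder group (5 arrays) stayed on powder for the same 8 days. Each sample is labelled as 5 weeks old, with no genetic or drug treatment. The labels speak of 10 rats and do not say which rat gave which array, so the errors and p-values cover only the scatter among these arrays, which may be partly technical.

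The unit throughout is the log2 expression value of a probe set as deposited, between 5.37 and 14.05. For 26193 of 31042 rat probe sets the 9 values spanned under 0.01 log2 units (median span 0.000475). These are called compressed here, and the other 4849 (15.6%) uncompressed. Srsf1, Srsf6, Srsf10 and Srsf11 had 6 uncompressed probe sets between them, spanning 0.198 to 0.459. The other 13 Srsf probe sets spanned 0.000222 to 0.00102, and Srsf2, Srsf3, Srsf4, Srsf5, Srsf7 and Srsf9 had compressed ones only. The span includes the difference between the diets, so a probe set could enter the uncompressed class through that difference, and the 6 cannot stand for the family as a whole.

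**Figure D1:**
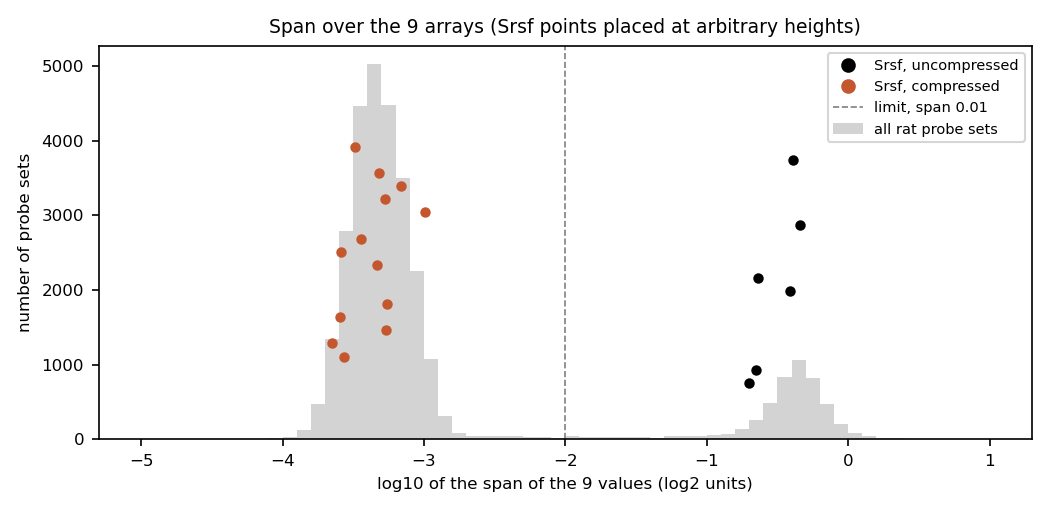
Histogram of the span of the 9 array values for all 31042 rat probe sets, on a log10 axis, with the 19 Srsf probe sets as points at arbitrary heights. The 13 compressed Srsf probe sets lie at spans of 0.00102 or less, and the 6 uncompressed ones lie at 0.198 or more.

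Relay-neuron markers were present at high values, with Slc17a6, the vesicular glutamate transporter of these cells, at 11.5 ± 0.26 in chow and 11.7 ± 0.021 in powder thalamus (SD, n = 4 and 5). Tissue markers varied among arrays, the mean over 5 hypothalamic markers running from 8.08 to 9.13 on chow and from 7.38 to 9.10 on powder arrays. The array chow 1 stood apart in striatal and relay-neuron markers. Its mean over 5 striatal markers was 8.20, against 7.53 to 7.61 on the other chow arrays and 7.48 to 7.54 on the powder arrays, and its mean over 7 relay-neuron markers was 9.73, against 10.1 to 10.3 and 10.2 to 10.3. For all 15 marker lists, which covered neurons of the thalamus and its neighbours, glia, vessels, choroid plexus, meninges, blood and dividing cells, the chow and powder ranges of the list mean overlapped, though the lists for habenula and pineal, oligodendrocyte precursors and dividing cells held compressed probe sets only. Of 57 uncompressed marker probe sets, 5 were called lower and 1 higher under chow, against 38.8% and 16.1% of all uncompressed probe sets. Of 11 for relay neurons the lower one was Tcf7l2 1379815_at, a transcription factor of thalamic neurons. It was at 7.86 ± 0.19 in chow and 8.15 ± 0.067 in powder thalamus (SD, n = 4 and 5). The limma difference was -0.30 ± 0.087 (adjusted p = 0.0354). Other uncompressed Tcf7l2 probe sets were at -0.26, 0.0066 and 0.21, none of them called. The uncompressed relay-neuron probe sets ran from -0.30 to 0.22. The endothelial markers Flt1 (-0.41) and Slco1a4 (-0.15), Prox1 of the cortex and hippocampus list (-0.35) and the oligodendrocyte marker Mobp (-0.13) were also called lower. The astrocyte water channel Aqp4 was called higher (0.53). Uncompressed probe sets of the same lists went both ways, from -0.41 to 0.22 for endothelium and pericytes and from -0.20 to 0.53 for astrocytes. Those for oligodendrocytes ran from -0.13 to 0.15 and those for cortex and hippocampus from -0.35 to 0.094. The 6 called marker probe sets are named after their values were seen, and their part in the Srsf differences was not tested. The 5' minus 3' value of the beta-actin control probe sets, a measure of RNA integrity, was -1.58 to -1.44 on chow and -1.70 to -1.55 on powder arrays.

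Srsf11 had the largest difference of the 4 genes with uncompressed probe sets over the 9 arrays, although Srsf6 1371999_at was lower without chow 1 (-0.33 against -0.31) and slightly so with the beta-actin value as a covariate. It encodes an SR protein known to contact U2AF, and in mouse neural cells it takes part in the inclusion of very short neuronal exons. Its probe set 1368212_at read 9.85, 9.78, 9.83 and 9.88 on the chow arrays, against 10.16, 10.14, 10.18, 10.11 and 10.12 on the powder arrays. Every chow array lay below every powder array, with a gap of 0.23 between the groups. The log2 difference, chow minus powder, was -0.31 ± 0.023 (SE), or 0.807-fold, and 10.3% of all uncompressed probe sets had a difference as low or lower. The second Srsf11 probe set, 1382056_at, was compressed, at 9.12 on all 9 arrays. In a bulk tissue sample, fewer cells of a type that uses a gene and less of its RNA per cell cannot be told apart, which holds for each value here.

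Srsf6, which binds exonic enhancers in the classical way, had 3 probe sets with 3 readings. Probe set 1371999_at read 8.66, 8.49, 8.52 and 8.54 in chow thalamus, against 8.86, 8.82, 8.84, 8.88 and 8.83 in powder thalamus, a difference of -0.30 ± 0.033 (0.815-fold). Chow 1 was the highest chow array and still lay 0.16 below the lowest powder array. Probe set 1372075_at read 9.69, 9.66, 9.68 and 9.76 under chow and 9.79, 9.81, 9.89, 9.78 and 9.85 under powder, a difference of -0.13 ± 0.029 (0.916-fold). Here the groups came within 0.016 of each other, chow 4 being nearest to the powder arrays. The probe set 1383466_at was compressed, at 7.57 on all arrays.

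Srsf1, the founding member of the family, which also acts in mRNA export and translation, had both of its probe sets uncompressed. Probe set 1371581_at read 9.94, 9.84, 9.88 and 9.95 under chow and 9.97, 10.02, 10.02, 10.00 and 10.04 under powder. The difference was -0.11 ± 0.024 (0.927-fold), and chow 4 and powder 1 were 0.025 apart. Probe set 1374072_at read 8.68, 8.58, 8.63 and 8.65 under chow and 8.74, 8.78, 8.81, 8.78 and 8.80 under powder, a difference of -0.15 ± 0.022 (0.904-fold). Both Srsf1 probe sets had chow 2 as the lowest chow array and powder 1 as the lowest powder array.

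Srsf10 is known as a splicing repressor when it is dephosphorylated, as in heat shock, and had 5 probe sets, 1 of them uncompressed. That one, 1382052_at, read 8.12, 7.86, 8.13 and 8.002 under chow and 8.26, 8.28, 8.32, 8.20 and 8.16 under powder. The difference was -0.22 ± 0.062 (0.861-fold), with the widest scatter of the 6 (SD 0.12 in chow and 0.066 in powder). Chow 2 lay well under the other chow arrays, and the groups were 0.032 apart. The other 4 Srsf10 probe sets stayed at 6.48, 6.52, 6.55 and 7.31 on every array.

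**Figure D2:**
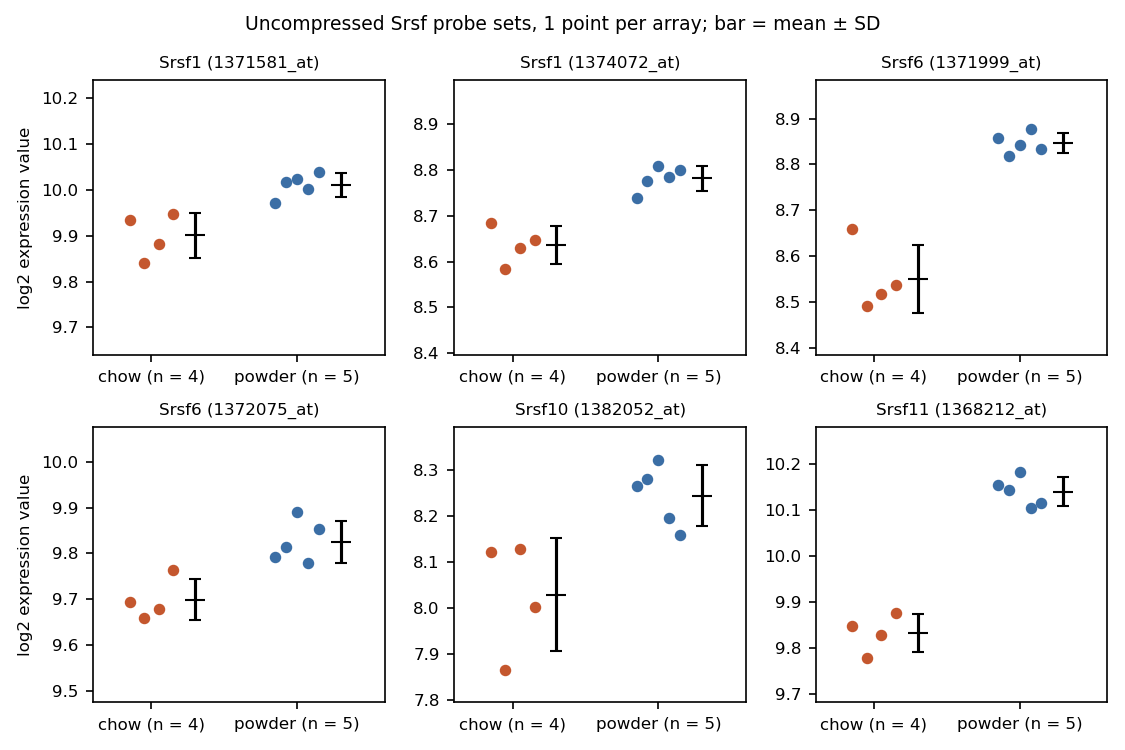
Log2 expression values of the 6 uncompressed Srsf probe sets, 1 point per array (chow, n = 4, left and powder, n = 5, right), with the mean ± SD beside each group. Each panel spans 0.6 log2 units, and in each of the 6 panels all chow points lie below all powder points.

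The limma fit ran over all probe sets, and a probe set was called at a Benjamini-Hochberg adjusted p under 0.05. All 6 uncompressed Srsf probe sets fell on the lower side of that threshold, which is no test of them, since the same differences chose the family and entered the span. Among all 4849 uncompressed probe sets 38.8% were called lower and 16.1% higher, and in 36.0% every chow array lay below every powder array, as in all 6 here. The median difference of the 6 was -0.18, against -0.11 over all uncompressed probe sets. Nothing is read from the count. Over all 19 Srsf probe sets the calls were 9 lower and 1 higher, where 16.7% and 17.9% of all 31042 probe sets were called. That balance depended on the scaling, with 6 lower and 9 higher after quantile normalization and 6 lower and 13 higher after subtraction of array medians, the 6 lower ones including every uncompressed Srsf probe set. Of all 31042 probe sets 1860 were called lower and 15594 higher after quantile normalization. After subtraction of array medians 2141 were called lower and 27206 higher. The rescaled Srsf counts thus moved with the whole table.

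The compressed probe sets added 3 lower calls (Srsf2, Srsf6 and Srsf9) and 1 higher call (a further Srsf10 probe set, 1392868_at) to these counts. Their differences ran from -0.00028 to 0.00051, so a call carries almost no size. Srsf9, a small SR protein close in sequence to Srsf1, was at 8.13 on every array with a difference of -0.00025. Srsf2, whose protein is the classical speckle marker, was at 10.50 and 8.79 on its 2 probe sets. The remaining ones were Srsf3 at 6.47, Srsf4 at 9.27, Srsf5 at 10.70 and Srsf7 at 6.94, none of them called, and for these 4 genes a change in level could be neither seen nor set aside from such values.

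**Figure D3:**
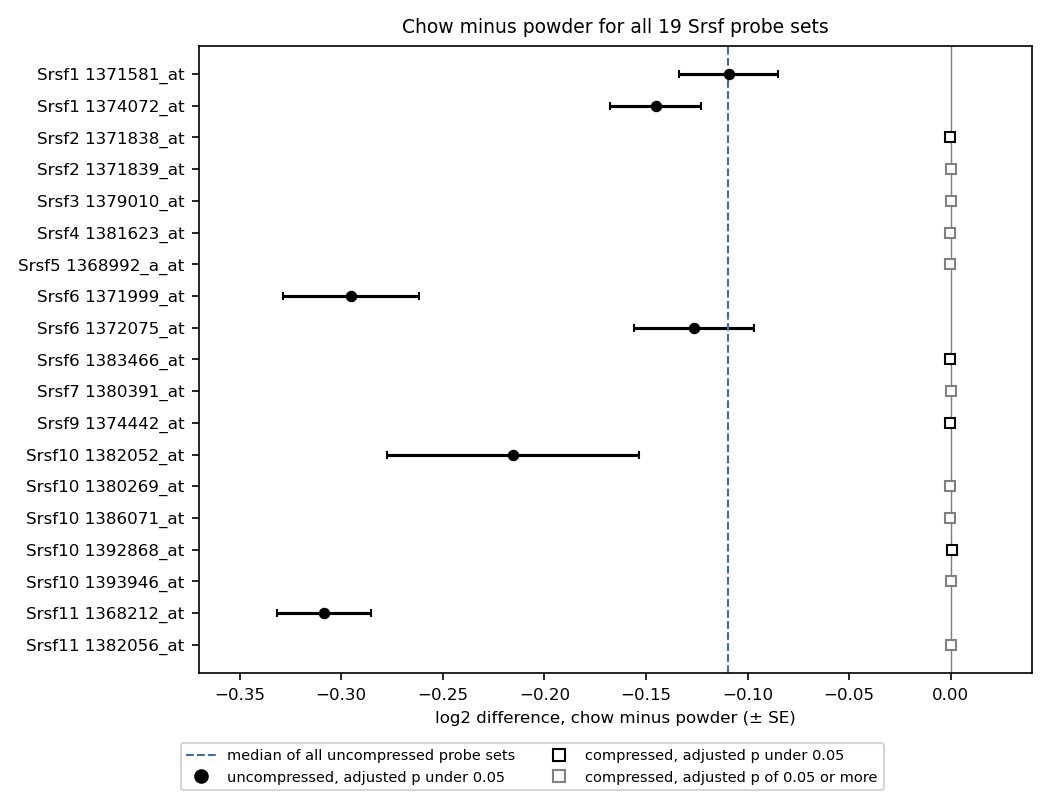
Chow minus powder difference (log2, ± SE from limma) for each of the 19 Srsf probe sets, with filled circles for uncompressed and open squares for compressed ones, black where called and grey where not. The uncompressed probe sets lie between -0.31 and -0.11, the compressed ones at 0 on this scale, and the dashed line marks the median of all uncompressed probe sets at -0.11.

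The differences of the 6 uncompressed probe sets were -0.33 to -0.12 without chow 1, the array with high striatal markers, and -0.29 to -0.089 without chow 2, which was the lowest chow array for all 6. Srsf10 no longer passed the threshold without any 1 of 5 arrays, chow 2 or 4 or powder 1, 2 or 3, and the other 5 passed it without any 1 array. With the beta-actin 5' minus 3' value as a covariate, the differences were -0.31 to -0.11 and 2 of the 6, Srsf6 1371999_at and Srsf11, passed.

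The 6 uncompressed probe sets, of 4 of the 10 genes, were also compared from array to array within the groups. After each group's mean was taken away, 14 of the 15 pairs of uncompressed Srsf probe sets correlated positively over the 9 arrays (93.3%, median r = 0.50). Over all pairs of the 4849 uncompressed probe sets 50.8% were positive, with a median r of 0.012, and 17.7% reached the Srsf median. The highest r, 0.89, was between both Srsf1 probe sets, and the lowest, -0.028, was between both probe sets of Srsf6, so 2 readings of 1 gene could be as unlike as readings of different genes. Srsf11 went with Srsf6 1372075_at at r = 0.72 and with Srsf10 at r = 0.68. All pairs share the same 9 arrays and their normalization, and chow 2 was the lowest chow array in each, as it was for 21.6% of all uncompressed probe sets. By correlation with the mean of the 6 over the 9 arrays, diet difference included, the 5 most similar named genes of 3427 uncompressed candidate probe sets were Ahctf1, a nucleoporin, Kmt2c, a histone methyltransferase, Tbl1x, of a nuclear co-repressor complex, Wdr45b, an autophagy protein, and Ppp4r3b, a phosphatase subunit (r = 0.985 to 0.992). Their chow minus powder differences were -0.42, -0.26, -0.60, -0.31 and -0.066.

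The upstream sequence of the 4 genes with uncompressed probe sets is shown as a description only. Their uncompressed probe sets shared chow 2 as the lowest chow array, while the lowest powder array differed among them. Each run holds the 250 bases before the transcript start in RefSeq's GRCr8 table, 5′ to 3′ on the gene's strand, with matches to 8 searched motifs in capitals.
Srsf1, chr10:73336248-73336497, plus strand: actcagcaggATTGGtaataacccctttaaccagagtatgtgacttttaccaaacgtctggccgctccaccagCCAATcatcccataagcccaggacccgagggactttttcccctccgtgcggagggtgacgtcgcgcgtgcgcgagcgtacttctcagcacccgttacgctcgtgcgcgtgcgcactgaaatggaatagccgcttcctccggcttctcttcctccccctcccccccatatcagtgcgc
Srsf6, chr3:172008822-172009071, plus strand: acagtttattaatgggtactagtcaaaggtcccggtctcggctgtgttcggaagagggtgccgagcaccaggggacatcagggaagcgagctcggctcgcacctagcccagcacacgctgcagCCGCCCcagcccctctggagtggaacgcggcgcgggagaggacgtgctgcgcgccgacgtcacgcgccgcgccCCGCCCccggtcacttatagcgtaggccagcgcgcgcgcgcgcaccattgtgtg
Srsf10, chr5:153372066-153372315, plus strand: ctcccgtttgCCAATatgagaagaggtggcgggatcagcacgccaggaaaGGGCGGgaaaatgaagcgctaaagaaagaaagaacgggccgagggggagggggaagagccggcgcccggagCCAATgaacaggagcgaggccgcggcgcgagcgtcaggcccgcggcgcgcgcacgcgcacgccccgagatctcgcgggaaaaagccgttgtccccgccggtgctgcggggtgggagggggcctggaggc
Srsf11, chr2:249760259-249760508, minus strand: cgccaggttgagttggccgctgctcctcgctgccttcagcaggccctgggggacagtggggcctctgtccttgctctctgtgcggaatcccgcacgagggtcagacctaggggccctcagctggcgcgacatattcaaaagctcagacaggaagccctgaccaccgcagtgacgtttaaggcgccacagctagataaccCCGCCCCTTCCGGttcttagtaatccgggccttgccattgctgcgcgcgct
The motifs were searched on both strands. They were the GC box GGGCGG, the CCAAT box with the letters CCAAT, the TATA box with the letters TATAAA, the cyclic AMP element TGACGTCA, the ETS core CCGGAAG, the NRF1 core with the letters GCATGCGC, the E2F site with the letters TTTCGCGC and the YY1 site with the letters AAGATGGCG. In the 4 printed windows 0 matches overlapped another. The GC box was in 3 of the 4 (all but Srsf1), against 30.5% of all 33469 windows, and the CCAAT box in 2 (Srsf1 and Srsf10), against 34.0%. Srsf11 alone of the 4 held the ETS core, found in 7.27% of all windows, and none of the 4 held the other 5 motifs, which 12.9% (TATA), 1.59% (cyclic AMP element), 2.20% (NRF1), 0.248% (E2F) and 0.693% (YY1) of all windows did. Over the 11 windows of all 10 genes, Srsf10 having a second start that is not printed, the median GC content was 67.6% and the median ratio of observed to expected CpG was 1.02, against 51.2% and 0.383 over all windows. Genes with compressed probe sets only also had GC boxes (Srsf2, Srsf4, Srsf5, Srsf7 and Srsf9). A match is a description of the letters and not a site shown to be bound.

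The rest of the splicing machinery was followed through 7 lists sorted by role, which were chosen with earlier results of these data known. Of 142 listed genes, 128 were measured, with 243 probe sets, of which 65 were uncompressed and stood for 49 genes. Of these 65, 41 (63.1%) were lower under chow and 16 (24.6%) higher, against 38.8% and 16.1% of all uncompressed probe sets, with a median difference of -0.21 against -0.11. Their span includes the difference between the diets as well, so these shares only describe the lists and test nothing. Without chow 1 or without powder 1, 2 or 3 the 16 became 10, and with the beta-actin value as a covariate 15 were lower and 3 higher. Genes were named as those of smallest p in each list, with a few others given for their direction or size. The p-values were adjusted over all probe sets.

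Of the kinases that act on SR proteins and their importer, 10 genes with 18 probe sets, 5 probe sets were uncompressed. Of these, 4 fell and 0 rose, where 38.8% and 16.1% of all uncompressed probe sets did, and 3 fell with the beta-actin covariate. Clk1, a nuclear kinase that releases SR proteins from speckles, averaged 10.3 ± 0.055 in chow and 10.6 ± 0.076 in powder thalamus (SD, n = 4 and 5), a difference of -0.27 ± 0.044 (limma adjusted p = 0.00611, and 0.0861 with the covariate). Its relative Clk4 was lower by a log2 difference of -0.24 ± 0.032 (adjusted p = 0.00351). Prpf4b, a spliceosomal kinase, was at 7.63 ± 0.046 in chow and 7.91 ± 0.011 in powder thalamus (-0.28 ± 0.020, adjusted p = 0.00143). Clk3 passed with a difference of only -0.0096, and Srpk2, a cytoplasmic SR kinase, was at -0.13 with adjusted p = 0.0604.

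Among other proteins with arginine and serine rich tails, 17 probe sets were lower and 6 higher of 27 uncompressed, against 38.8% and 16.1% of all uncompressed probe sets. With the beta-actin covariate 7 were lower and 1 higher, against 421 and 100 of all 4849 uncompressed probe sets. Son, which organises nuclear speckles, averaged 9.56 ± 0.065 under chow and 9.86 ± 0.018 under powder (SD), a difference of -0.30 ± 0.029 (limma adjusted p = 0.00196). Srek1, an SR-related regulator, was lower with a log2 difference of -0.32 ± 0.031 (adjusted p = 0.00192), and its second uncompressed probe set was at -0.0087. Nktr, a cyclophilin with such a tail, gave opposite readings, -0.42 ± 0.035 (adjusted p = 0.00154) on 1398596_at and 0.31 ± 0.045 (adjusted p = 0.00448) on 1392519_at.

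The few uncompressed probe sets of the splice-site recognition list split. Snrnp70, the U1 protein that SR proteins contact, averaged 9.66 ± 0.079 under chow and 10.1 ± 0.068 under powder (SD), a difference of -0.42 ± 0.047 (limma adjusted p = 0.00259). The U2 subunits Sf3b2 (0.27 ± 0.034, adjusted p = 0.00302) and Sf3b1 (0.28 ± 0.065, adjusted p = 0.0170) rose, Sf3b1 with adjusted p = 0.0701 under the beta-actin covariate. These were the only 3 uncompressed ones of 28 probe sets in that list.

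Among the hnRNP proteins, which often oppose SR proteins at the same exons, 8 of 9 uncompressed probe sets were lower and 1 higher, against 38.8% and 16.1% of all uncompressed probe sets. With the beta-actin covariate 1 lower call, Hnrnpu, and the 1 higher call were left. Hnrnpu fell by 0.40 on the log2 scale (-0.40 ± 0.034, limma adjusted p = 0.00155) and Hnrnpa1, the classical antagonist of Srsf1, by 0.30 (-0.30 ± 0.043, adjusted p = 0.00442). The 1 higher probe set belonged to Hnrnpa2b1 (0.31 ± 0.044, adjusted p = 0.00428), whose other 2 were at -0.25 ± 0.039 and -0.30 ± 0.066, both called.

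Few probe sets for the steps after splicing were uncompressed, 2 of 16 in the nonsense-mediated decay list and 4 of 19 in the mRNA export list. Compressed ones included, the decay list had 3 lower and 4 higher calls and the export list 7 lower and 3 higher. Of all rat probe sets 16.7% were called lower and 17.9% higher, and of all uncompressed ones 38.8% and 16.1%. Both uncompressed probe sets of the decay list were lower, Upf3b at -0.23 ± 0.032 (limma adjusted p = 0.00422) and Upf2 at -0.28 ± 0.043 (adjusted p = 0.00525). Of the 4 uncompressed mRNA export probe sets 3 were called lower and 1 higher. The higher one was Thoc2, of the THO complex, at 0.20 (limma adjusted p = 0.0284). Its call was lost without chow 1 or 2 or powder 1, 2 or 3. Lower were Nxf1, the main export receptor, at -0.23 ± 0.044 (adjusted p = 0.00931), and the export helicase Ddx39b at -0.21 ± 0.035 (adjusted p = 0.0066). Thoc1, also of the THO complex, was lower at -0.29 ± 0.042 (adjusted p = 0.0046). With the beta-actin covariate 0 decay calls and 1 export call, Thoc1, were left (limma adjusted p for Upf3b 0.058 and for Upf2 0.0958).

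Neuronal splicing regulators had 6 lower and 6 higher calls of 15 uncompressed probe sets, against 38.8% and 16.1% of all uncompressed probe sets. Among the lower were Mbnl1, a muscleblind protein (-0.24 ± 0.019, limma adjusted p = 0.00143), and the U-rich sequence binders Tia1 (-0.47 ± 0.041, adjusted p = 0.0017) and Tial1 (-0.21 ± 0.032, adjusted p = 0.00535). The higher calls were Elavl2 (0.39 and 0.22), Mbnl2 (0.31 and 0.22), Celf2 (0.26) and Khdrbs1 (0.26). Another Celf2 probe set was at -0.12 and not called. When 1 array was left out in turn, the 6 lower calls became 4 to 5 and the 6 higher calls 2 to 5. The higher calls were 2 without chow 3 or without powder 1, 2, 3 or 5. Mbnl1, Tia1 and Tial1 were each called without any 1 array, and with the beta-actin covariate 2 lower calls (Mbnl1 and Tia1) and 0 higher ones were left.

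**Figure D4:**
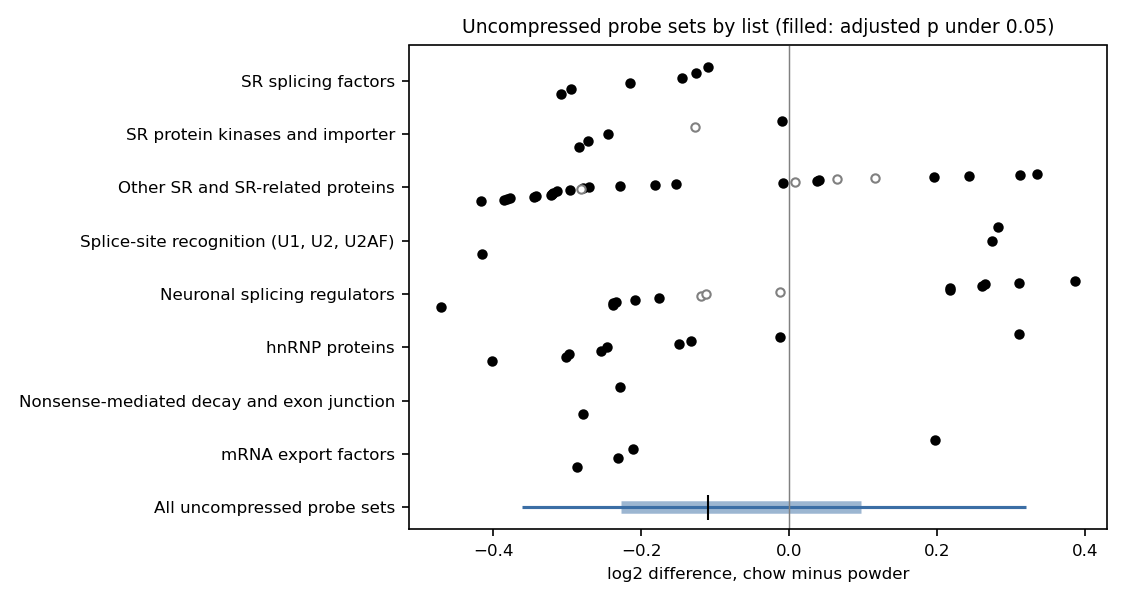
Chow minus powder difference (log2) of each uncompressed probe set in the SR family and the 7 related lists, 1 point per probe set, filled where the adjusted p was under 0.05. The bottom row gives all uncompressed probe sets (tick, median; thick bar, the range from the 25th to the 75th percentile; thin line, the range from the 5th to the 95th percentile). The SR factor points lie between -0.31 and -0.11, and the neuronal regulators reach both sides.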

How the data were processed

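The data were the deposited log2 expression values of 9 rat arrays (4 chow, 5 powder), hybridised, per the labels' protocols, with biotin-labelled cRNA made from 100 ng of RNA. The log2 unit of the deposited values was inferred from their size. Which software summarised and normalized them is not given in the sources used here. They were not normalized further. Array medians were 7.391 to 7.396 on chow and 7.398 to 7.402 on powder arrays, and every chow median lay below every powder median. For arrays, precision is limited by their number. The 57 control probe sets were left out and 31042 rat probe sets fitted with limma 3.58.1 in R 4.3.3 (lmFit, eBayes; chow minus powder, no covariate), after a check on simulated data. Probe sets were called at a Benjamini-Hochberg adjusted p under 0.05. Genes came from the platform annotation: 20826 probe sets had 1 symbol, 436 several and 9780 none. The family members, the related lists and the marker lists were chosen with earlier results of these data known. Named were all Srsf probe sets, the 3 genes of smallest p among the uncompressed probe sets of each related list with their other uncompressed probe sets, and the 5 genes most correlated with the mean of the 6 uncompressed Srsf probe sets. A few other genes of the kinase, export and neuronal lists were given for their direction or size. Alternatives were leaving out each array in turn, a beta-actin covariate, a replicate block, array-median centring, quantile normalization, robust eBayes with a variance trend, and dropping either the compressed probe sets or the dimmest ones (a share of 0.25). Upstream sequences came from RefSeq (GRCr8).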

Additional observations from a re-analysis of the deposited data

Results flagged for a closer look

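A single far array was tested for in 86 groups, from the Srsf probe sets and those of the related genes of smallest p. Of these, 2 exceeded Dixon's critical value for their group size, and chance exceeds it in about 1 in 20 groups. For Srsf2 1371839_at, chow 2 stood apart from the other chow arrays with a ratio of 0.936. This probe set is compressed, and chow 2 was at 8.78923 while the other 3 were at 8.78944 to 8.78945. For Hnrnpa2b1 1373540_at, chow 3 stood apart with a ratio of 0.885.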

How the results depend on the processing

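Of the 96 results of the 6 uncompressed Srsf probe sets under the alternatives, 81 kept their direction and side of the threshold and 15 kept the direction only, which describes members chosen on this contrast. The replicate numbers shared by chow and powder arrays were not taken as pairs. Same-numbered arrays deviated with r of -0.306, 0.186, -0.344 and -0.164 over the uncompressed probe sets, and differently numbered ones with r of -0.376 to 0.393. These deviations are taken from the group means over few arrays, so they cannot exclude a pairing. With the replicate block, in which powder 5 has no partner and adds nothing, 0 of the 6 uncompressed and 0 of all 19 Srsf probe sets were called lower and 0 higher, as were 18 lower and 1 higher of all probe sets, 17 and 1 of the uncompressed, and 0 and 0 of the related lists. With the beta-actin covariate the counts were 2 lower of the uncompressed Srsf, 3 lower and 0 higher of all Srsf, 862 and 567 of all, 421 and 100 of the uncompressed, and 15 and 3 of the related lists. The cause was not tested. The 1 higher Srsf call became 9 after quantile normalization, 13 after subtraction of array medians, 0 without the dimmest probe sets, 0 with compressed probe sets left out (fewer are then tested) and 1 to 2 without 1 array. Over all probe sets, lower and higher calls were 1860 and 15594 after quantile normalization, 2141 and 27206 after median subtraction, and 2019 and 865 without compressed probe sets. Without 1 array, all higher calls numbered 3661 to 4879 and related higher calls 10 to 16. Compressed probe sets moved by a median of 0.0066 (medians) and 0.0084 (quantile), more than their own differences, so 13 of 13 compressed Srsf probe sets were positive under each. Directions reversed for compressed Srsf2 1371839_at (-2.41e-05), Srsf10 1393946_at (-4.96e-05) and Srsf11 1382056_at (6.01e-05) with the covariate, for Srsf11 1382056_at without chow 3 (-0.000103 to 5.08e-06 over the single arrays left out), and for the second Srek1 probe set after quantile normalization (0.0062).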
